A study of Arabidopsis thaliana with 9 samples.

Results

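CYP78A9, SPT and GID1A are 3 Arabidopsis thaliana genes of carpel, transmitting tract and fruit growth. They were chosen by name, and CYP78A9 also because earlier results from these arrays had shown it moving in opposite directions with the 2 kinds of pollen. Its values are therefore given as a description, with no test. SPT and GID1A were chosen with earlier results of these arrays known, so their tests are not independent evidence. Each gene had 1 probe set, and all 3 genes were measured, out of 13513 probe sets with 1 listed gene and 22746 tested. No filter on low values was applied.

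Transcript levels were measured on arrays of whole pistils, the female organ with its stigma, style, transmitting tract and ovules. Every pistil was of the male-sterile line ms1 in the Ler-0 background at flower stage 14, and each collection pooled 100 pistils. There were 3 groups of 3 biological replicates. The first received pollen of the myb triple mutant, which is in the Col-0 ecotype and carries the alleles myb120-3, myb101-4 and myb97-1, and was collected 8 hours later. The second received wild-type pollen, also Col-0, and was collected after the same time. The third was left unpollinated. MYB97, MYB101 and MYB120 are transcription factors of the pollen tube, and the title of the study concerns their control of tube differentiation and sperm release. They had no listed probe set, so the mutant label was not checked against them. Both pollinated groups hold RNA of Col-0 tubes and of Ler-0 pistils together, and the 2 sources cannot be told apart. Fewer cells of a type and less RNA per cell cannot be told apart either, nor can pollination and the 8 hours of waiting, which the labels do not give for unpollinated pistils.

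CYP78A9 encodes a cytochrome P450 of the plant CYP78A family, whose members promote growth of organs, ovules and seeds from the maternal tissue, and its overexpression in Arabidopsis gives enlarged fruits that can form without fertilisation. SPT (SPATULA) is a basic helix-loop-helix (bHLH) transcription factor needed for the carpel margin, the style and the transmitting tract through which pollen tubes grow. GID1A is a receptor of gibberellin, the hormone that drives fruit set. When gibberellin binds, the receptor joins DELLA repressor proteins and an F-box protein then directs these for degradation.

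Median intensities were 109.9 to 114.6 with mutant pollen, 112.2 to 117 with wild-type pollen and 103.3 to 104.7 in unpollinated pistils, so both pollinated groups stood above the unpollinated one in scale. All 7 measured pollen and pollen tube markers of 9 listed, LAT52 and ANX2 among them, passed as higher with both pollens. Their summed intensity was 6350.2 to 7729.2 with mutant pollen, 7090.8 to 8531.1 with wild-type pollen and 159.5 to 210.2 in unpollinated pistils. Of 8 pistil markers 2 were measured. INO of the ovule integument had an intensity of at least 146 on every array. The other, AT3G12000, is an S-locus related glycoprotein gene of the stigma. Its intensities were 20.1 to 22.5 with mutant pollen, 17.6 to 25.5 with wild-type pollen and 300.2 to 494.6 in unpollinated pistils. Mutant array 2 was closest over all probe sets to wild-type array 1, and not to another mutant array. The part of pollen RNA in the results that follow was not tested.

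CYP78A9 was lower with mutant pollen and higher with wild-type pollen than without pollination. Its intensity was 55.7, 76.6 and 50.2 with mutant pollen, 108.4, 109.9 and 116.2 with wild-type pollen, and 78.8, 74.5 and 84.4 in unpollinated pistils. Mutant arrays 1 and 3 lay below every unpollinated array, while mutant array 2 lay inside the unpollinated range. All 3 wild-type arrays lay above all others. Wild-type and unpollinated arrays did not overlap in 52.8% of all probe sets (27.9% with wild-type pollen higher, 24.9% lower). Mutant and wild-type arrays did not overlap in 9.96% (4.73% with mutant pollen higher, 5.23% lower). The choice of CYP78A9 used these contrasts, so nothing is read from the shares. On the log2 scale the mean was 5.90 ± 0.32 with mutant pollen, 6.80 ± 0.05 with wild-type pollen and 6.31 ± 0.09 in unpollinated pistils (SD, n = 3 each). The mutant arrays spread more than the others, so the standard errors (SE), which pool the spread of all groups, understate the error of the mutant mean.

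**Figure D1:**
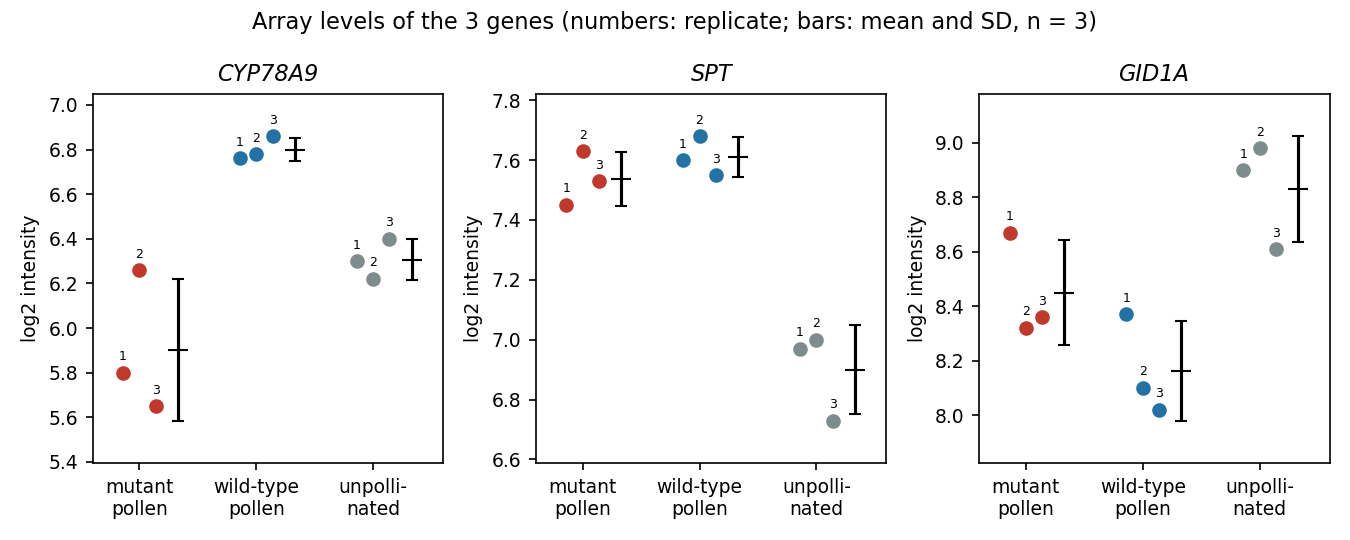
Array levels of CYP78A9, SPT and GID1A, as log2 intensity on the y axis, with 1 point per array (labelled by replicate number) in the mutant pollen, wild-type pollen and unpollinated groups, and the mean and SD beside them (n = 3). For CYP78A9 the wild-type arrays stand at 6.76 to 6.86 above all others and mutant array 2, at 6.26, stands among the unpollinated arrays, for SPT both pollinated groups stand above the unpollinated one, and for GID1A mutant array 1, at 8.67, stands above unpollinated array 3, at 8.61.

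The log2 differences of CYP78A9 were -0.40 ± 0.14 for mutant pollen minus unpollinated, 0.49 ± 0.14 for wild-type pollen minus unpollinated and -0.90 ± 0.14 for mutant minus wild-type pollen (SE, n = 3 per group). The last is a level 1.86-fold lower with mutant pollen. For scale, 13.0% of probe sets had a log2 difference at least as low with mutant pollen and 12.7% one at least as high with wild-type pollen, and nothing is read from these shares either. The mutant log2 difference was -0.28 without mutant array 3 and -0.58 without mutant array 2, and its sign did not depend on 1 array. With each array's median subtracted the log2 differences from unpollinated pistils were -0.51 with mutant pollen and 0.36 with wild-type pollen.

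A probe set passed where the adjusted p of the limma fit over all 22746 probe sets was under 0.05. Both comparisons use the same unpollinated arrays, and 2287 probe sets (10.1%) had differences of opposite signs. CYP78A9 was chosen for its opposite directions in these same values, so no pass is given for it. As a background over all 22746 probe sets, 1 probe set (0.0044%) passed in both comparisons with opposite signs. The count uses the values behind the choice, so it is no test of CYP78A9. Nothing is read from the count or from its share. AT2G21430 followed CYP78A9 when all probe sets of opposite sign were ranked by the smaller of their moderated t values. Its log2 difference was -0.30 ± 0.12 with mutant pollen and 0.33 ± 0.12 with wild-type pollen. The next probe sets with 1 listed gene follow in the order of that ranking. AT2G42290 had -0.47 ± 0.12 with mutant and 0.26 ± 0.12 with wild-type pollen. AT4G34600 had -0.24 ± 0.11 with mutant and 0.30 ± 0.11 with wild-type pollen. AT1G23340 had -0.24 ± 0.08 with mutant and 0.16 ± 0.08 with wild-type pollen. AT1G68780 had -0.59 ± 0.15 with mutant and 0.28 ± 0.15 with wild-type pollen. A full separation, with every mutant array below and every wild-type array above all unpollinated arrays, was found in 3 probe sets (0.0132%), and the reverse in as many. AT4G34600, with a dim mutant mean of 3.29 on the log2 scale, was among the first 3, and CYP78A9 was not because of mutant array 2.

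**Figure D2:**
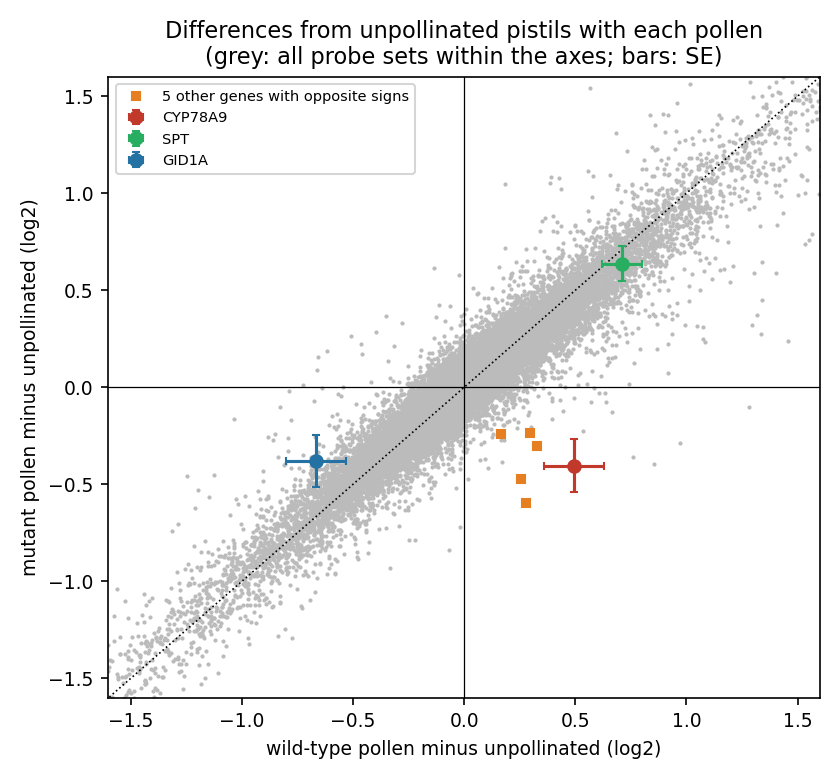
Log2 difference from unpollinated pistils with mutant pollen (y axis) and with wild-type pollen (x axis), with 1 grey point per probe set within the axes, the 3 genes with SE bars, and 5 other genes with opposite signs as squares. SPT (0.64 with mutant and 0.71 with wild-type pollen) and GID1A (-0.38 and -0.67) lie among the probe sets near the dotted line of equal differences, and CYP78A9 (-0.40 and 0.49) lies to the lower right, away from it; both axes share the unpollinated arrays.

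The genes whose levels followed those of CYP78A9 most closely over the 9 arrays were AT3G13350 (Pearson's r = 0.923), the cytochrome P450 gene CYP71B6 (0.922), AT1G68780 (0.893), AT3G48550 (0.893) and AT2G42290 (0.887). These are correlations over arrays that share the group structure, and are given as a description. The 2 closest had small differences: AT3G13350 had a log2 difference of -0.06 ± 0.07 with mutant and 0.10 ± 0.07 with wild-type pollen, and CYP71B6 had -0.06 ± 0.06 with mutant and 0.08 ± 0.06 with wild-type pollen. AT1G68780 and AT2G42290, also found by the opposite signs, had log2 differences of -0.87 ± 0.15 and -0.73 ± 0.12 between mutant and wild-type pollen, near that of CYP78A9. No other gene of the CYP78A list had a probe set with 1 listed gene, so CYP78A5 (KLUH) and CYP78A6, which act on the same growth processes, were not analysed here.

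SPT was higher after pollination with either pollen, and a difference between the pollens was not detected. Its intensity was 174.9, 198.1 and 184.8 with mutant pollen, 194.0, 205.1 and 187.4 with wild-type pollen, and 125.4, 128.0 and 106.2 in unpollinated pistils. Every pollinated array was above every unpollinated array, and the mutant and wild-type arrays overlapped. Over all probe sets the arrays of mutant pollen and unpollinated pistils did not overlap in 50.5%. The log2 difference from unpollinated pistils was 0.64 ± 0.09 with mutant pollen (1.55-fold, adjusted p = 0.000323) and 0.71 ± 0.09 with wild-type pollen (1.64-fold, adjusted p = 0.00014).

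SPT thus passed in both comparisons, as did 41.5% of all probe sets with mutant pollen (22.3% higher) and 43.6% with wild-type pollen (23.4% higher). Rises at least as large were found in 8.07% and 7.60% of probe sets with mutant and wild-type pollen. Between mutant and wild-type pollen the log2 difference of SPT was -0.07 ± 0.09, with a 95% interval of -0.27 to 0.13, and it did not pass (adjusted p = 0.998). In that comparison 0.312% of probe sets passed (0.0264% higher and 0.286% lower with mutant pollen). With each array's median subtracted, which lowered the median of all probe sets by 0.11 with mutant and 0.136 with wild-type pollen, SPT was still higher, by 0.53 with mutant and 0.57 with wild-type pollen. Of the passing probe sets 35.0% with mutant and 32.2% with wild-type pollen were then higher, against 53.8% and 53.7% as deposited. Renewed quantile normalization gave 43.8% and 43.5%.

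The closest genes to SPT over the 9 arrays had correlations of 0.991 to 0.994. WLIM2a, for a LIM domain protein that bundles actin, led them and was higher by 0.86 ± 0.11 with mutant and 1.01 ± 0.11 with wild-type pollen. AT1G28610, AT5G56350, AT5G62360 and AT1G13930 followed. AT5G62360 differed most, by 2.89 ± 0.21 with mutant and 2.99 ± 0.21 with wild-type pollen. In these 5 genes, as in SPT, the mean was lowest in unpollinated pistils and close between the 2 pollens. They were chosen for following SPT over these arrays, so the shared order comes from the choice.

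Among the other regulators of carpel, style and transmitting tract, ALC and HAF were lower and WAG2 was higher with both pollens. Of 38 others on the list 10 were measured, of which 1 passed as higher and 2 as lower with mutant pollen, and 1 as higher and 3 as lower with wild-type pollen. That is 3 of 10 and 4 of 10 against 41.5% and 43.6% of all probe sets, so the number of calls is no result about the list. The median log2 difference of the 10 was -0.21 with mutant and -0.19 with wild-type pollen, against 0.01 and 0.00 over all probe sets. With array medians subtracted, 5 carpel genes passed as lower in each comparison (NGA3, INO and SEU beside ALC and HAF), and after renewed quantile normalization 6 did with wild-type pollen (5 with dim probe sets left out), so the count of lower genes depends on the scaling. With array medians subtracted, 6633 of all 22746 probe sets passed as lower with mutant pollen and 7579 with wild-type pollen, and 5854 did with wild-type pollen after renewed quantile normalization. Without single arrays the count of lower genes with mutant pollen ran from 1 (mutant array 2 or 3, or unpollinated array 1 or 2) to 4 (unpollinated array 3). Between mutant and wild-type pollen 0 of the 10 passed in limma, and 0 had an unadjusted p under 0.05.

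**Figure D3:**
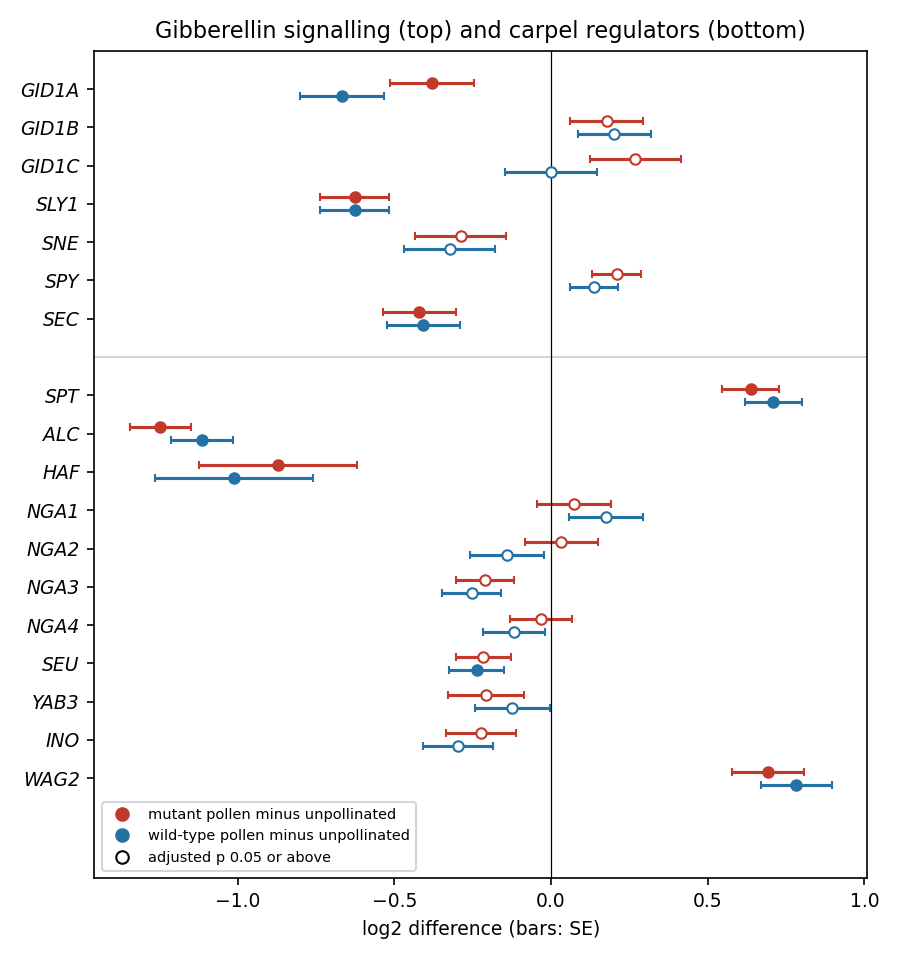
Log2 difference from unpollinated pistils (x axis, bars SE) for the measured genes of gibberellin signalling and of the carpel list, with mutant pollen above wild-type pollen for each gene and open circles where the adjusted p was 0.05 or above. ALC stands farthest to the left, at -1.25 with mutant and -1.11 with wild-type pollen, and SPT and WAG2 stand to the right between 0.64 and 0.78.

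ALC (ALCATRAZ), a bHLH factor closely related to SPT that is needed for the separation layer of the fruit valve margin, moved against SPT. Its intensity was 317.4, 377.4 and 407.3 with mutant pollen, 390.7, 415.9 and 396.2 with wild-type pollen, and 910.2, 885.3 and 809.0 in unpollinated pistils. Pollinated and unpollinated arrays did not overlap, and ALC was 2.37-fold lower with mutant pollen (log2 -1.25 ± 0.10, adjusted p = 4.23e-06) and 2.16-fold lower with wild-type pollen (log2 -1.11 ± 0.10, adjusted p = 9.45e-06).

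HAF (also CES), another bHLH factor that promotes transmitting tract development, fell too. Its intensity was 2592.3, 2225.6 and 2256.7 with mutant pollen, 2435.5, 2418.7 and 1652.0 with wild-type pollen, and 5220.6, 5634.2 and 2702.4 in unpollinated pistils. Unpollinated array 3 was close to the pollinated arrays, and the other 2 were far above them. The log2 difference was -0.87 ± 0.25 with mutant pollen (adjusted p = 0.0184) and -1.01 ± 0.25 with wild-type pollen (adjusted p = 0.0083). The call with mutant pollen was lost without mutant array 2 or 3 or unpollinated array 1 or 2 (adjusted p from 0.0548 to 0.0693).

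WAG2, a protein kinase that acts on auxin transport, was the gene that rose. It was dim, with intensities of 31.3, 27.1 and 35.5 with mutant pollen, 30.1, 36.5 and 33.1 with wild-type pollen, and 21.0, 18.0 and 18.9 in unpollinated pistils. Pollinated and unpollinated arrays did not overlap, and mutant and wild-type arrays did. In the deposited values it was 1.62-fold higher with mutant pollen (log2 0.69 ± 0.11, adjusted p = 0.00079) and 1.72-fold higher with wild-type pollen (log2 0.78 ± 0.11, adjusted p = 0.000325). Its unpollinated mean, 4.27 on the log2 scale, was just under the 25th percentile of mean levels (4.29), and no background level was given, so the size of these folds is uncertain.

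SEU (SEUSS), a transcriptional co-regulator, had log2 differences of -0.22 ± 0.09 with mutant pollen (adjusted p = 0.0708) and -0.24 ± 0.09 with wild-type pollen (adjusted p = 0.0494), and the second call was lost without any 1 of the 9 arrays (adjusted p from 0.0503 to 0.188). The 4 NGATHA genes of style development did not pass as deposited, with log2 differences of 0.07, 0.03, -0.21 and -0.03 for NGA1 to NGA4 with mutant pollen and 0.18, -0.14, -0.25 and -0.12 with wild-type pollen. NGA1 and NGA2 changed sign with mutant pollen when array medians were subtracted. The YABBY genes YAB3 and INO had -0.21 ± 0.12 and -0.22 ± 0.11 with mutant pollen and -0.12 ± 0.12 and -0.30 ± 0.11 with wild-type pollen, and did not pass as deposited.

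**Figure D4:**
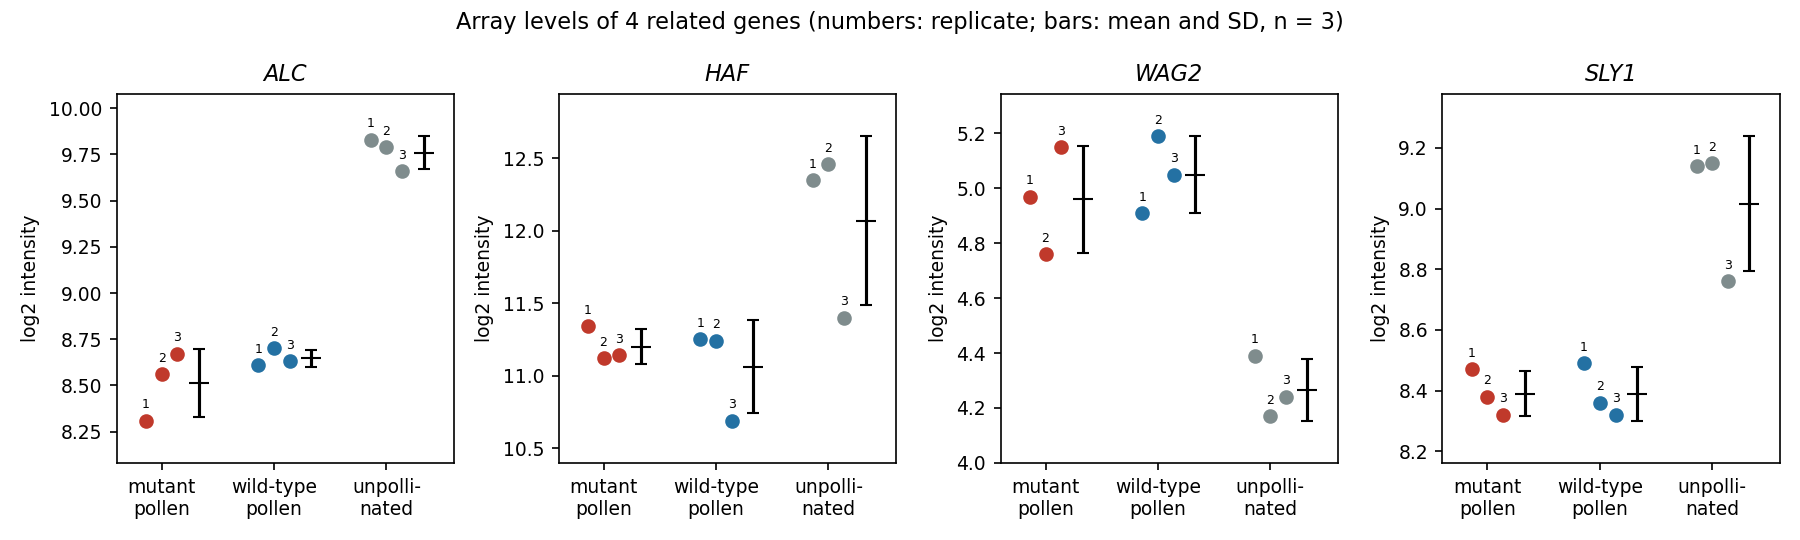
Array levels of ALC, HAF, WAG2 and SLY1, as log2 intensity on the y axis, with 1 point per array (labelled by replicate number) in the mutant pollen, wild-type pollen and unpollinated groups, and the mean and SD beside them (n = 3). Pollinated and unpollinated arrays are apart for all 4 genes, and unpollinated array 3 of HAF, at 11.40, stands close to the pollinated arrays.

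GID1A was lower after pollination with either pollen, and its mean was lowest with wild-type pollen. Its intensity was 407.3, 319.6 and 328.6 with mutant pollen, 330.8, 274.4 and 259.6 with wild-type pollen, and 477.7, 505.0 and 390.7 in unpollinated pistils. The wild-type arrays lay below all unpollinated arrays, mutant array 1 lay above unpollinated array 3, and the mutant and wild-type arrays overlapped. The log2 difference was -0.38 ± 0.13 with mutant pollen (1.30-fold lower, adjusted p = 0.0428) and -0.67 ± 0.13 with wild-type pollen (1.59-fold lower, adjusted p = 0.00245). Of all probe sets 19.2% passed as lower with mutant and 20.2% with wild-type pollen.

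The fall of GID1A with mutant pollen was close to the threshold. Its call was lost without mutant array 2 or 3, wild-type array 2, or unpollinated array 1 or 2 (adjusted p from 0.0589 to 0.137), and when wild-type arrays were kept out of the fit (adjusted p = 0.0556). The log2 difference between mutant and wild-type pollen was 0.29 ± 0.13, with a 95% interval of -0.01 to 0.58, and did not pass (adjusted p = 0.998), so a difference between the pollens was not shown for GID1A. With array medians subtracted the fall was -0.49 with mutant and -0.80 with wild-type pollen.

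The other 2 gibberellin receptors passed in neither comparison. GID1B had log2 differences of 0.18 ± 0.12 with mutant pollen (adjusted p = 0.25) and 0.20 ± 0.12 with wild-type pollen (adjusted p = 0.191). Its intensity was 75.6, 56.9 and 56.5 with mutant pollen, 64.9, 57.3 and 68.6 with wild-type pollen, and 54.9, 55.3 and 55.3 in unpollinated pistils, so the pollinated arrays were all higher, by little. GID1C had log2 differences of 0.27 ± 0.15 with mutant pollen and 0.00 ± 0.15 with wild-type pollen (95% intervals of -0.06 to 0.59 and -0.33 to 0.33), and neither passed. All 3 receptors bind gibberellin and overlap in function.

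Of the 11 other genes on the list of gibberellin receptors and signalling 6 were measured, and 2 of them passed as lower and none as higher with either pollen, against 41.5% and 43.6% of all probe sets in either direction. Their median log2 difference was -0.06 with mutant and -0.16 with wild-type pollen. SLY1, the F-box protein that directs DELLA repressors for degradation, had an intensity of 354.6, 333.1 and 319.6 with mutant pollen, 359.5, 328.6 and 319.6 with wild-type pollen, and 564.2, 568.1 and 433.5 in unpollinated pistils. Pollinated and unpollinated arrays did not overlap, and SLY1 was 1.54-fold lower with either pollen (log2 -0.63 ± 0.11, adjusted p = 0.00115 with mutant and 0.00105 with wild-type pollen).

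SEC, an enzyme that adds N-acetylglucosamine to DELLA proteins, fell with both pollens, with a log2 difference of -0.42 ± 0.12 with mutant pollen (adjusted p = 0.0153) and of -0.41 ± 0.12 with wild-type pollen (adjusted p = 0.017). The first call was lost without mutant array 1 (0.0574) and the second without wild-type array 2 (0.0723) or unpollinated array 3 (0.0535). SPY, which modifies DELLA proteins with fucose, had log2 differences of 0.21 ± 0.08 and 0.14 ± 0.08 with mutant and wild-type pollen, and SNE (also SLY2), a relative of SLY1, had -0.29 ± 0.15 and -0.32 ± 0.15. None of these passed as deposited, but SNE passed as lower with both pollens when array medians were subtracted (adjusted p = 0.0361 with mutant and 0.0175 with wild-type pollen), after renewed quantile normalization (0.0126 and 0.0081) and, with mutant pollen, without mutant array 3 (0.0417). SPY passed as higher with mutant pollen after renewed quantile normalization (adjusted p = 0.0389), with a robust variance prior that follows the mean level (adjusted p = 0.04997), with dim probe sets left out (adjusted p = 0.0478) and without wild-type array 3 (adjusted p = 0.032). Between mutant and wild-type pollen 0 of the 6 passed in limma, and 0 had an unadjusted p under 0.05. The DELLA genes, the 21 genes of gibberellin synthesis and inactivation and the 7 GASA peptide genes had no probe set with 1 listed gene and were not analysed here.

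The genes closest to GID1A over the 9 arrays were AT4G28240 (r = 0.979), AKINBETA1 (0.957), AT3G10770 (0.957), ATG8E (0.957) and AT3G62650 (0.956). AKINBETA1 encodes a subunit of the SnRK1 energy-sensing kinase and ATG8E a protein of autophagosome formation. AKINBETA1 had a log2 difference of -1.23 ± 0.22 with mutant and -1.83 ± 0.22 with wild-type pollen, and ATG8E had -0.85 ± 0.14 with mutant and -1.18 ± 0.14 with wild-type pollen. In all 5, as in GID1A, the mean was lowest with wild-type pollen, between with mutant pollen and highest in unpollinated pistils. This order too comes from the choice of the genes by their correlation with GID1A.

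**Figure D5:**
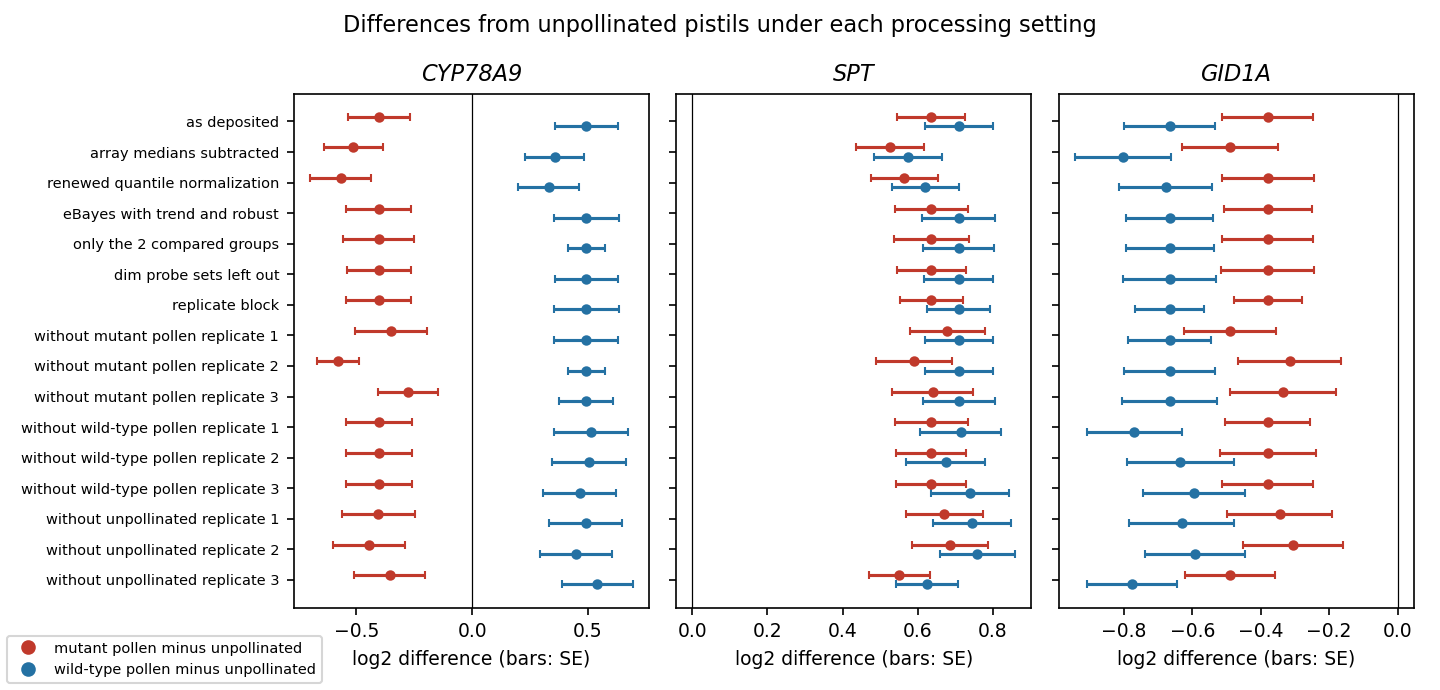
Log2 difference from unpollinated pistils (x axis, bars SE) of CYP78A9, SPT and GID1A as deposited and under 15 other settings (rows), with mutant pollen above wild-type pollen in each row. The 3 genes keep their side of 0 in every row; for CYP78A9 with mutant pollen the values run from -0.58 without mutant array 2 to -0.28 without mutant array 3.

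Within groups the SD of log2 levels was 0.193 for CYP78A9, 0.107 for SPT and 0.190 for GID1A, against a median of 0.121 over all probe sets. The order of the groups was wild-type pollen, unpollinated and mutant pollen for CYP78A9, from high to low. SPT had mutant and wild-type pollen, which did not differ beyond their spread, above unpollinated pistils. GID1A had unpollinated pistils above mutant and then wild-type pollen, with overlapping arrays in each of the neighbouring pairs.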

How the data were processed

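The 9 arrays were assigned to 3 groups by their titles. The deposited values were linear intensity per probe set, from 6.4 to 27175.1. The submitters' processing notes name RMA, Affymetrix Expression Console and Partek, without versions, and RNA was amplified from 100 ng with a 3' IVT kit, per the labels' protocols. RMA is meant to set arrays to a common scale. The medians of the deposited arrays still differed, from 103.3 to 117, so small differences depend on the scaling. Precision is limited by having 3 arrays in each group.

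Of 22810 probe sets, 64 controls were left out. The platform annotation listed 1 gene for 13513 probe sets, several for 503 and none for 8730, and 13436 of the first were matched to TAIR10.1 names. R 4.3.3 with limma 3.58.1 was used for a fit of all 9 arrays on the log2 scale, with a mean for each group and 6 residual degrees of freedom, and p-values were adjusted by the Benjamini-Hochberg method over all 22746 probe sets. The fit was also run on simulated data with normal noise and few changed probe sets. Many more passed here against unpollinated pistils, so that run checks the code alone.

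The members and gene lists were chosen with earlier results of these data known. Named genes were the members, passing list genes (up to 6 each way for the carpel list), the 5 genes closest to each member by Pearson's r, and the 5 other genes nearest to the pattern of CYP78A9. List genes that did not pass were given by value. Closest genes were chosen on their levels and were not tested. Other settings were 2 scalings, a robust variance prior that follows the mean level, the compared groups alone, a filter at the 25th percentile of mean level, a replicate block, and each array left out. Replicates are biological per the labels, with no shared day or batch given, so the numbers were not taken as pairs. Deviations of arrays with the same number correlated at -0.162 to 0.313, over 0.1 in 4 of 9 pairs. Those of arrays with different numbers correlated at -0.371 to 0.171. These values do not settle whether the numbers were pairs, and the replicate block is given as another setting.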

Additional observations from a re-analysis of the deposited data

Results flagged for a closer look

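CYP78A9 was marked because each pollen moved it the opposite way from the unpollinated mean in every array. Its log2 difference between mutant and wild-type pollen was -0.90, and no test of it is given, since the gene was chosen for this pattern. Mutant array 2, at a log2 level of 6.26, lay below the unpollinated mean of 6.31 but inside the unpollinated range.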

How the results depend on the processing

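SPT kept its direction and its call under all 15 settings in both comparisons with unpollinated pistils, with log2 differences of 0.53 to 0.69 with mutant and 0.57 to 0.76 with wild-type pollen. GID1A kept its direction in all 15, and its call in all 15 with wild-type pollen (-0.80 to -0.59). With mutant pollen the call of GID1A was lost in 6, namely in the compared groups alone (-0.38, adjusted p = 0.0556) and without 5 single arrays, where all 9 left-out arrays gave -0.49 to -0.30. CYP78A9 kept both signs in all 15 settings, at -0.58 to -0.28 with mutant and 0.33 to 0.54 with wild-type pollen, and at -1.08 to -0.77 between the pollens.

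The count of passing probe sets between mutant and wild-type pollen was 71. It was 37 without mutant array 1, 35 without mutant array 3, 42 without wild-type array 1 and 38 without wild-type array 2, and ran from 35 to 85 over the 9 left-out arrays. With a replicate block it was 67, the calls of SPT and GID1A did not change, the log2 differences were as without it, and the call of SEU with wild-type pollen was lost (adjusted p = 0.0644), while INO passed as lower (adjusted p = 0.0486 with mutant and 0.0146 with wild-type pollen). AT2G21430 was chosen by its moderated t values in these same comparisons, so nothing is read from its adjusted p, with the block or without it. Signs of small log2 differences turned in some settings. With array medians subtracted, NGA1 was at -0.0365 and NGA2 at -0.0762 with mutant pollen, and AT3G13350 at -0.0335 and CYP71B6 at -0.0598 with wild-type pollen. After renewed quantile normalization NGA2 was at -0.0190 with mutant pollen, and AT3G13350 at -0.00205 and AT1G23340 at -0.0267 with wild-type pollen. Over the 9 left-out arrays GID1C with wild-type pollen ran from -0.107 to 0.0668, and with mutant pollen NGA1 ran from -0.0703 to 0.175, NGA2 from -0.0935 to 0.117 and NGA4 from -0.130 to 0.0464. Where an array was left out the fit had fewer samples, and for the other changes the cause was not tested. Signal over background was not given, so a dim gene such as WAG2 cannot be called absent or present.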
